A study of Homo sapiens with 7 samples.

Results

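In human RPE1 cells, an immortalised line from retinal pigment epithelium, 1527 start-site windows had a moderate start and signal far downstream. They were 16.7% of the 9123 windows present in all WT and CFAP20-KO tables, and 54.8% of the 2789 windows with a moderate start. A window was the stretch from 100 kb before to 100 kb after an annotated transcript start, read on the transcribed strand in 200-bp bins. The windows were chosen on the average of the 3 WT libraries. The mean signal over the first 3 kb (the start) had to be at least 1 and below 20. The mean over 50 to 100 kb (the far region) had to be at least 0.25 of the mean over 3 to 50 kb (the body). These values therefore describe the choice and support nothing by themselves.

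The libraries were made from nascent RNA, labelled for 30 min with 2 mM bromouridine and captured with an antibody (BrU-seq). All groups share one background, which the labels call RPE1 iCas9 p53/puro-dKO, so WT here means WT for CFAP20 in cells that lack p53. The groups were CFAP20-KO (3 libraries), CFAP20-KO with CFAP20-GFP (the rescue, 1 library) and WT (3 libraries). The labels give neither the number of knockout clones nor the origin of the replicates, and a p-value here speaks to library spread alone, which may be technical. Signal is in the authors' scaled units per bin throughout.

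RNA polymerase II starts at a promoter, often slows just downstream of it, and then travels along the gene body until it ends near the cleavage and polyadenylation site. A short pulse with a labelled nucleotide marks the RNA made during that travel, introns included. In a window of fixed length, signal far from the start can come from the same long gene or from a neighbour read in the same direction. CFAP20 is a conserved protein of cilia, and the study asked about its role in the nucleus, in transcription and replication.

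The libraries differed in depth and in kind. Each library's signal came in multiples of its own smallest step, and the summed steps ran between 3.02e+07 in CFAP20-KO replicate 1 and 1.17e+08 in WT replicate 2. CFAP20-KO replicates 2 and 3 were the most alike of all pairs (correlation 0.990 over windows, a description). A number in the column names of the splice table, taken here as a run, was shared by CFAP20-KO replicate 1 and WT replicate 1, by CFAP20-KO replicates 2 and 3 and WT replicate 3, and by the rescue and WT replicate 2. Values within runs stand beside the results below for that reason. CFAP20 itself was not analysed here. Few cell-type markers could be placed: of the retinal pigment epithelium list 2 of 11 genes, of which TTR was at 0 in all 6 CFAP20-KO and WT libraries and RLBP1 lay between 0 and 0.42. The mesenchymal genes FBN1 and TWIST1 gave at least 18.8 and 8.79, and CD14, the only placed blood-cell gene, at most 0.682. The neuronal gene MAP2 had 2.33 to 2.72 in CFAP20-KO and 5.70 to 6.89 in WT libraries, and SYT1 had 6.63 to 7.50 in CFAP20-KO and 7.70 to 10.1 in WT libraries. None of these genes was a located member, and their part in the results was not tested.

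The deposited identifiers carry no gene names. Members were therefore placed on the genome by matching the fine structure of their signal in 6 libraries with that around annotated starts inside the deposited windows of replication origins, whose positions are given. This located 304 members (19.9%), 280 of them at protein-coding genes. Their matches were at least 0.809 (median 0.932), while the next best match elsewhere reached at most 0.696. Only starts inside the origin windows could be matched, so the located members are not a random draw of the 1527.

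Of the located members, 138 had a RefSeq promoter within 20 bases of the placed start. The 250 bases before the start are shown for 6 of them: LINC00632 and CTTNBP2, whose signal was lower in CFAP20-KO, PACSIN2 and OPTN, with 2 of the 5 largest increases of start signal, and MED27 and MED18, which stand for the long and the short genes described below. Letters run 5′ to 3′ on the transcribed strand. Capitals mark matches, on either strand, to 6 motifs that were searched for in every promoter. The TATA box was written as TATAAA, which helps to place the start of transcription in some genes. For the CCAAT box, bound by the factor NF-Y, the letters CCAAT were used. The GC box, bound by Sp1 and its relatives, was searched as GGGCGG and is frequent in promoters rich in CG dinucleotides. For factors of the ETS family the core used was CGGAAG, which they bind in many housekeeping promoters. The cAMP response element was TGACGTCA, and it is bound by CREB and related factors. The E box was searched as CACGTG, a site of several helix-loop-helix factors. No marked matches overlap, and the sequences are those of RefSeq.
LINC00632 (GRCh38.p14, chrX:140709509-140709758, plus strand): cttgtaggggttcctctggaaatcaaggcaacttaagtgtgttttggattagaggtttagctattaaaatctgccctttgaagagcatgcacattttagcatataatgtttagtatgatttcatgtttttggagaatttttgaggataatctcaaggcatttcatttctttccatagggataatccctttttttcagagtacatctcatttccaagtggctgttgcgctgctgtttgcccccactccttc
CTTNBP2 (GRCh38.p14, chr7:117873442-117873691, minus strand): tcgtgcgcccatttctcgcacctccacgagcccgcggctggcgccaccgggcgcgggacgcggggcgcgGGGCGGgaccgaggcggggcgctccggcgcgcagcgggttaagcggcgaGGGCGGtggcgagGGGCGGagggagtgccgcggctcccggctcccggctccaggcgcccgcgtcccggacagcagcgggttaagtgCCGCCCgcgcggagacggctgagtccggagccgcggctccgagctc
PACSIN2 (GRCh38.p14, chr22:43015150-43015399, minus strand): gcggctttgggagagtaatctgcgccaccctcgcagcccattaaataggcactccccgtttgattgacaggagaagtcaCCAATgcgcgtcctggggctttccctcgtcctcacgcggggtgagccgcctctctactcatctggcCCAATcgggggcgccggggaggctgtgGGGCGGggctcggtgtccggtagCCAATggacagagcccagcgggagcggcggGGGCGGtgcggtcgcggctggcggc
OPTN (GRCh38.p14, chr10:13099913-13100162, plus strand): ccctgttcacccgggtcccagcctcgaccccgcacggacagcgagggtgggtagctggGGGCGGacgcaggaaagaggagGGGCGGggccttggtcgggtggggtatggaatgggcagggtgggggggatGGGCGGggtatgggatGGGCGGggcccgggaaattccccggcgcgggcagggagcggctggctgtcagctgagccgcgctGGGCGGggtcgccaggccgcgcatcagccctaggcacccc
MED27 (GRCh38.p14, chr9:132079868-132080117, minus strand): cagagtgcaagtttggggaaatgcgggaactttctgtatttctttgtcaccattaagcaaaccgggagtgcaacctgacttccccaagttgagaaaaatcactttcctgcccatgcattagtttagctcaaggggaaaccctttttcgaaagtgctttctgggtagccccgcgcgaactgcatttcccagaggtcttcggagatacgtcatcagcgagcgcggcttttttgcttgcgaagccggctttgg
MED18 (GRCh38.p14, chr1:28328790-28329039, plus strand): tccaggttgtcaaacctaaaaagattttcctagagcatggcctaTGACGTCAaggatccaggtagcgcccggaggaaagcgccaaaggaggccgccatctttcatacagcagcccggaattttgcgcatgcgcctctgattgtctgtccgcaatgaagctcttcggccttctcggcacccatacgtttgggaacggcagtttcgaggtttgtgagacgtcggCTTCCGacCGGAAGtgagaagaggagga

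The CTTNBP2 promoter holds 4 GC boxes and 80% G or C, and that of OPTN 5 GC boxes. PACSIN2 has 3 CCAAT boxes and 2 GC boxes. LINC00632 differs from these, with 38.4% G or C, 1 CG dinucleotide and no match. MED27 has no match either, while MED18 holds 2 ETS cores and 1 cAMP response element. Over the 138 member promoters, GGGCGG occurred in 73.2%, against 70.6% of 68 promoters of located windows with contained signal and 42.5% of 34943 RefSeq promoters. TATAAA occurred in 3.62% of member promoters, in 7.35% of the contained ones and in 10.8% of all, and CCAAT in 37.0%, 44.1% and 32% of the same 3 sets. The shares for CGGAAG were 23.2%, 25% and 16.4%. For TGACGTCA they were 3.62%, 5.88% and 1.63%, and for CACGTG 10.1%, 4.41% and 6.32%. The median member promoter had 65.8% G or C, against 64.8% in contained and 58% in all promoters. A match describes letters only.

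Along the window, signal was high at the start, sank to a trough and then rose again. By steps of 10 kb, the median member had 4.05 ± 0.20 in CFAP20-KO and 3.67 ± 0.51 in WT over the first 10 kb (mean ± SD of library medians, n = 3 each, as in all such values below). The trough lay between 30 and 50 kb, with 1.11 ± 0.27 in CFAP20-KO and 0.95 ± 0.20 in WT at 40 to 50 kb. A second maximum came at 60 to 70 kb, with 1.33 ± 0.32 in CFAP20-KO and 1.21 ± 0.20 in WT. At 90 to 100 kb the values were 0.92 ± 0.18 and 0.85 ± 0.14. Each of these differences between groups was smaller than the larger of their SDs. The difference exceeded both SDs at 10 to 20 kb, with 1.97 ± 0.18 in CFAP20-KO and 1.58 ± 0.22 in WT. It also did so at 20 to 30 kb, with 1.44 ± 0.24 in CFAP20-KO and 1.18 ± 0.20 in WT. Single libraries of the groups overlapped in both steps.

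**Figure D1:**
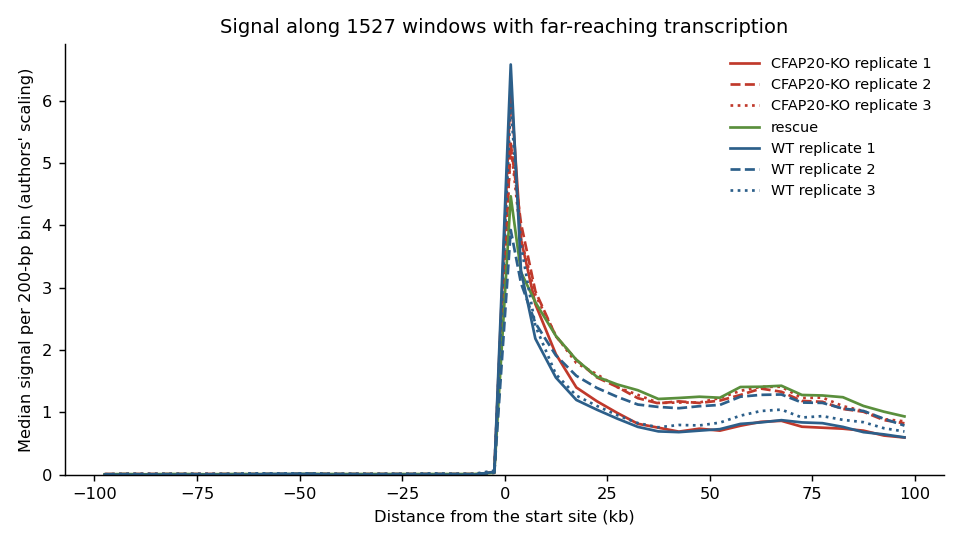
Median signal per 200-bp bin over the 1527 windows (vertical axis, authors' scaling) against distance from the start site in kb, in segments of 5 kb with the first 3 kb apart. Each line is 1 library (CFAP20-KO red, rescue green, WT blue). Beyond 20 kb the lines of CFAP20-KO replicates 2 and 3, the rescue and WT replicate 2 lie highest. Those of CFAP20-KO replicate 1 and WT replicates 1 and 3 lie below them.

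From the step of 10 to 20 kb on, the libraries split in a way that did not follow the groups. At 40 to 50 kb, CFAP20-KO replicates 2 and 3 had 1.25 and 1.29, the rescue 1.33 and WT replicate 2 had 1.17. CFAP20-KO replicate 1 had 0.80, and WT replicates 1 and 3 had 0.77 and 0.91. Upstream of the start, from 50 to 3 kb before it, the median member had 0.0858 to 0.105 in CFAP20-KO and 0.0755 to 0.156 in WT libraries, so the windows were almost silent on that side.

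The rise beyond the trough came from a part of the members. In single libraries, 70.2% to 76.2% of members in CFAP20-KO and 70.9% to 79.8% in WT had signal in every 10-kb step. A 5-kb stretch below 0.1 of the mean over 3 to 100 kb, followed by a later stretch above that mean, occurred in 45.1% to 48.7% of members in CFAP20-KO and in 42.0% to 47.7% in WT. The highest 10-kb step was the first in 54.0% to 60.0% of members in CFAP20-KO and 52.8% to 58.0% in WT. It lay beyond 50 kb in 28.4% to 31.7% in CFAP20-KO and 30.5% to 34.3% in WT, and these ranges overlap.

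Annotation separated the members into genes that fill the far region and genes that do not. Of the 304 located members, 117 (38.5%) belong to genes that span 100 kb or more from the placed start, 85 (28%) to genes of 50 to 100 kb, and 102 (33.6%) to genes under 50 kb. The median span was 72.1 kb, against 26.6 kb for the 157 located windows with contained signal, of which 85.4% belong to genes under 50 kb. Among the short-gene members, 87 of 102 (85.3%) had another coding gene starting on the same strand between 3 and 100 kb. Among contained windows with genes under 50 kb this share was 38.1%, or 51 of 134. In the short-gene members, other same-strand genes covered 62.8% of the far region, against 21.3% in those contained windows. These shares are descriptions, since the far signal chose the members.

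**Figure D2:**
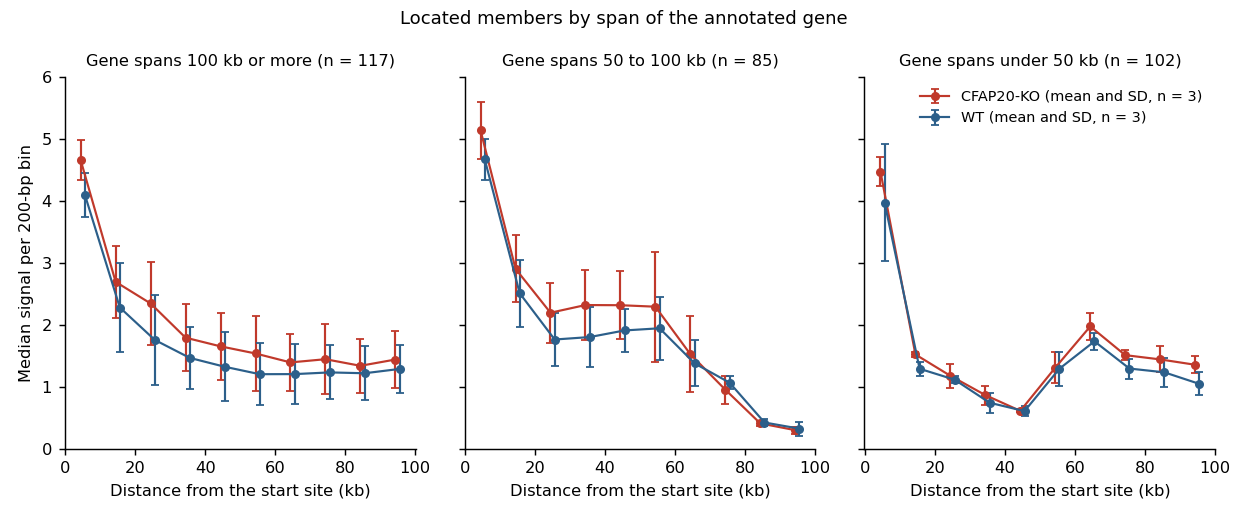
Median signal per 200-bp bin (vertical axis) by steps of 10 kb from the start site (horizontal axis) for located members, in 3 panels by the span of the annotated gene. Points and bars are the mean and SD of 3 library medians (CFAP20-KO red, WT blue); genes under 50 kb fall to a trough at 40 to 50 kb and rise again at 60 to 70 kb, and genes of 50 to 100 kb fall away beyond 60 kb.

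The profiles of the 3 classes differed in shape. Genes of 100 kb or more fell to 1.39 ± 0.45 in CFAP20-KO and 1.21 ± 0.49 in WT at 60 to 70 kb and stayed near there, with 1.44 ± 0.46 and 1.29 ± 0.39 at 90 to 100 kb. Genes of 50 to 100 kb held 2.29 ± 0.89 in CFAP20-KO and 1.95 ± 0.51 in WT at 50 to 60 kb and ended at 0.30 ± 0.06 and 0.32 ± 0.11. Genes under 50 kb sank to 0.61 ± 0.02 in CFAP20-KO and 0.61 ± 0.08 in WT at 40 to 50 kb. They then reached 1.98 ± 0.22 and 1.73 ± 0.14 at 60 to 70 kb. What the annotation holds in that step alone was not examined. Genes of 100 kb or more showed no comparable rise, with 1.34 to 1.54 in CFAP20-KO and 1.2 to 1.29 in WT in every step beyond 50 kb.

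Within the far region the signal followed the annotation. Where the bins lay in the member's own gene (191 members with at least 25 such bins), the median was 1.03, 2.12 and 2.26 in CFAP20-KO replicates 1, 2 and 3, against 1.19, 2.02 and 1.57 in WT replicates 1, 2 and 3. These groups overlap. Where the bins lay in another gene of the same strand (130 members), the medians were 3.66, 3.94 and 3.88 in CFAP20-KO and 3.6 in the rescue, against 3.26, 3.21 and 3.33 in WT, so every knockout median was above every WT median, as was the rescue. The mean signal in these bins overlapped, with 7.86, 6.15 and 5.99 in CFAP20-KO and 5.21 in the rescue, against 7.03, 4.55 and 6.69 in WT. Where no same-strand gene was annotated (146 members), CFAP20-KO libraries had 0.288 to 0.303 and WT libraries 0.291 to 0.344.

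**Figure D3:**
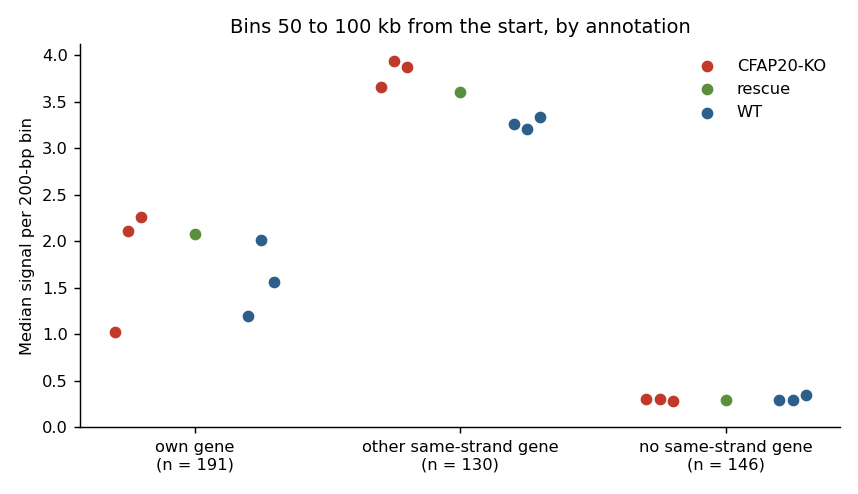
Median signal per 200-bp bin (vertical axis) in the bins 50 to 100 kb from the start of located members, by what GENCODE 44 holds there on the same strand. Each point is 1 library (CFAP20-KO red, rescue green, WT blue); bins in other genes lie between 3.21 and 3.94, and bins with no gene between 0.288 and 0.344.

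The comparison of CFAP20-KO with WT asked whether the loss of CFAP20 changed how signal was spread along these windows. WT values, those of the body included, enter both the choice and the contrast. The counts below therefore identify windows, and neither they nor the medians are read as a result about the members. The start differed little: the median member had 6.21, 5.31 and 5.29 in CFAP20-KO replicates 1 to 3, against 6.58, 3.93 and 5.94 in WT replicates 1 to 3, and the groups overlap. The body was higher in every knockout library, with medians of 1.77, 2.07 and 2.03 in CFAP20-KO and 2.01 in the rescue, against 1.56, 1.72 and 1.67 in WT. The rescue lay within the knockout range. The difference of body medians was 0.206 in the run of CFAP20-KO replicate 1 and 0.386 in the run of replicates 2 and 3. For the far region the medians were 1.36, 1.83 and 1.80 in CFAP20-KO against 1.42, 1.6 and 1.63 in WT, which overlap. Over moderate windows of any ratio the body medians were 1.69, 2.02 and 1.98 in CFAP20-KO against 1.57, 1.64 and 1.71 in WT. There the groups overlap. Among located members, body medians were apart only in genes under 50 kb, with 2.17 to 2.28 in CFAP20-KO and 1.74 to 2.10 in WT. Far medians were apart there too (2.42 to 2.49 and 2.00 to 2.24). Body medians overlapped in genes of 50 to 100 kb (2.26 to 3.20 and 1.86 to 2.77) and of 100 kb or more (1.74 to 2.75 and 1.68 to 2.78).

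The ratio of far to body signal was lower in every knockout library. Its median over members was 0.664, 0.734 and 0.749 in CFAP20-KO replicates 1 to 3 and 0.775 in the rescue, against 0.793, 0.760 and 0.833 in WT replicates 1 to 3. The rescue was above WT replicate 2, which shares its run, and below the other WT libraries. Within runs the difference was -0.129 for CFAP20-KO replicate 1 and -0.0917 for replicates 2 and 3. Members whose far region exceeded the body made up 33.2% to 34.4% in CFAP20-KO and 35.0% to 41.5% in WT. Over moderate windows of any ratio this share was 18.3% to 19.0% in CFAP20-KO and 19.2% to 22.7% in WT. In windows with contained signal it went the other way, with 0.238% to 0.317% in CFAP20-KO and 0% to 0.0792% in WT. When windows were chosen on WT replicate 2 alone (1495 windows, of which 1305 were also members), the medians were 0.664, 0.737 and 0.751 in CFAP20-KO, against 0.790 and 0.833 in WT replicates 1 and 3, which that choice did not use. Over moderate windows of any ratio the medians were 0.278, 0.310 and 0.314 in CFAP20-KO and 0.314, 0.316 and 0.341 in WT, where CFAP20-KO replicate 3 and WT replicate 1 met at 0.314.

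**Figure D4:**
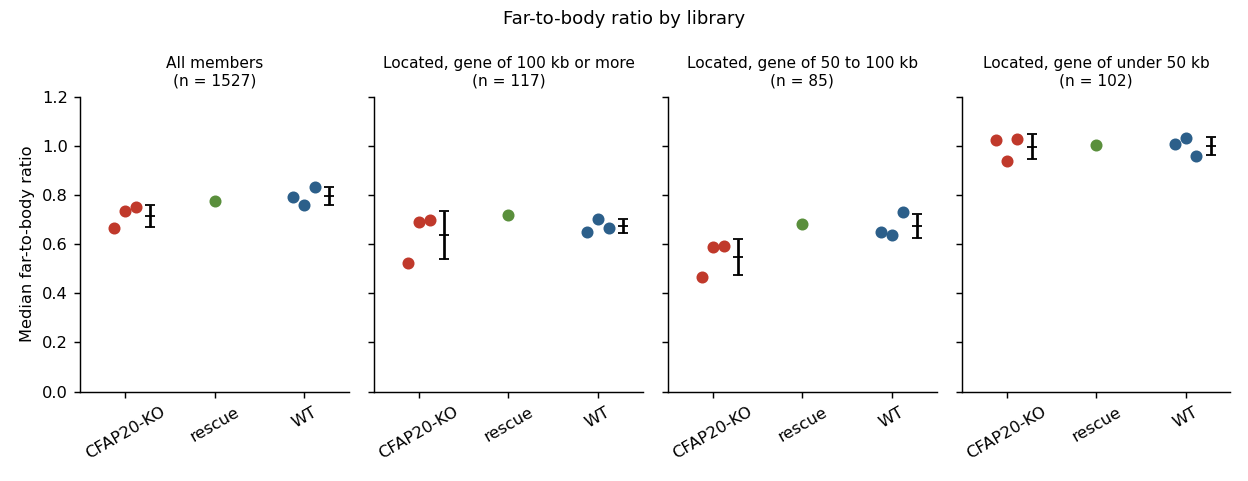
Median ratio of far to body signal (vertical axis) in each library, over all 1527 members and over located members in 3 classes of gene span. Points are libraries (CFAP20-KO red, rescue green, WT blue), and bars beside them give mean and SD (n = 3); the groups are apart for all members and for genes of 50 to 100 kb and overlap in the other classes.

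By gene span, the median ratio in genes of 50 to 100 kb was 0.464, 0.589 and 0.594 in CFAP20-KO and 0.683 in the rescue, against 0.651, 0.639 and 0.729 in WT, so the groups are apart. In genes of 100 kb or more the medians were 0.525, 0.690 and 0.698 in CFAP20-KO against 0.648, 0.703 and 0.664 in WT, which overlap. The share of windows with a ratio over 1 was apart in that class, with 7.69% to 9.40% in CFAP20-KO and 12.8% to 19.7% in WT, and overlapped in genes of 50 to 100 kb, with 23.5% to 27.1% in CFAP20-KO and 24.7% to 41.2% in WT. In genes under 50 kb the median ratios were 1.02, 0.939 and 1.03 in CFAP20-KO against 1.01, 1.03 and 0.959 in WT, which overlap. The median log2 change was -0.16, -0.20 and -0.03 in genes of 100 kb or more, of 50 to 100 kb and under 50 kb. Whether the classes differ from each other in this change was not tested. The ratio of late to early body signal (25 to 50 kb over 3 to 25 kb) gave 0.490, 0.595 and 0.608 in CFAP20-KO and 0.535, 0.608 and 0.531 in WT over all members, and differed by -0.0453 in the run of CFAP20-KO replicate 1 and by 0.0707 in that of replicates 2 and 3. In genes under 50 kb it was lower in each knockout library, with 0.426, 0.502 and 0.502 in CFAP20-KO against 0.510, 0.600 and 0.584 in WT. In genes of 50 to 100 kb it was 0.545, 0.714 and 0.763 in CFAP20-KO against 0.661, 0.690 and 0.679 in WT. In genes of 100 kb or more it was 0.510, 0.591 and 0.625 in CFAP20-KO against 0.521, 0.614 and 0.505 in WT. The groups overlap in both of these classes. The median log2 change was -0.13 in genes under 50 kb, -0.05 in those of 50 to 100 kb and 0.09 in the longest.

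Window by window, few members passed the test (limma, Benjamini-Hochberg adjusted p under 0.05 over all windows tested). For the start, 0 members were higher and 1 lower of 1527 tested, where 0.210% and 0.0839% of all 4768 windows tested were called. At an unadjusted p under 0.05, 34 members (2.23%) were higher and 57 (3.73%) lower, beside 3.63% and 4.80% of all windows. For the body, 0 were higher and 5 lower of 1527, where the shares of all 7071 windows were 0.453% and 0.283%. At an unadjusted p under 0.05 there were 79 (5.17%) higher and 33 (2.16%) lower, beside 6.27% and 5.70%. For the far-to-body ratio, 1 was higher and 2 were lower of 1526, beside 0.164% and 0.115% of 6099 windows. At the unadjusted threshold there were 28 (1.83%) higher and 73 (4.78%) lower, beside 5.13% and 7.05%. For the late-to-early ratio, 1 was higher and 1 lower of 1490, beside 0.0185% and 0.0556% of 5393 windows, with 30 (2.01%) higher and 53 (3.56%) lower at the unadjusted threshold, beside 3.60% and 4.65%. The replicate block joins libraries of the same number, although CFAP20-KO replicate 2 and WT replicate 2 do not share a run. Only the far-to-body ratio met the pairing criterion. With the block, 0 members were called for that ratio in either direction, where 0.0328% of all windows were called in each.

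The median change of the body was 0.23 on the log2 scale over members and 0.11 over all windows tested, and 74.5% of members against 58.8% of all windows had a positive change. Body values of the knockout libraries lay wholly above those of WT in 218 members (14.3%) and wholly below in 48 (3.14%), where 12.1% and 7.92% of all windows did so. With each library centred, the median body change was 0.14 over members and 0.02 over all windows, and 100 members (6.55%) lay wholly above and 64 (4.19%) wholly below, beside 8.15% and 9.73%. The median change of the far-to-body ratio was -0.14 over members and -0.07 over all windows. Its values lay wholly above WT in 69 members (4.52%) and wholly below in 230 (15.1%), beside 7.53% and 11.5% of all windows. Centred, the median change of the ratio was -0.08 over members and -0.01 over all windows, with 98 members (6.42%) wholly above and 181 (11.9%) wholly below, beside 8.76% and 9.77%. For the start the median changes were 0.02 over members and -0.01 over all windows, and 77 members (5.04%) lay wholly above and 108 (7.07%) wholly below, beside 6.23% and 7.89%. For the late-to-early ratio, with a median change of -0.02 over members and over all windows, 128 (8.59%) lay wholly above and 117 (7.85%) wholly below, beside 7.79% and 7.47%. With the run as a covariate, 240 members were higher and 81 lower in body signal (15.7% and 5.30%, beside 8.54% and 9.04% of all windows). For start signal 37 were higher and 195 lower (2.42% and 12.8%, beside 2.47% and 14.0%). WT replicate 2 was the only library of its run in that fit, so it did not enter the contrast of the groups. In that fit the median change of the start was -0.18 over members and -0.21 over all windows. What part this shift of all windows had in the start calls was not tested. Centring each library as well gave 99 higher and 133 lower members for the start, beside 5.52% and 9.54% of all windows, and 301 higher and 74 lower for the body, beside 10.8% and 7.98%. Neither ratio then had a member called, centred or not, where 0.0164% of all windows were called higher and 0.0328% lower in the far-to-body ratio. With the replicate block, 0 members were higher and 4 lower in start signal, beside 0.357% and 0.273%, and 21 higher and 13 lower in body signal, beside 2.05% and 1.65%. The block with centring gave 37 higher (2.42%) and 61 lower (3.99%) for the start, beside 2.73% and 4.15%, and 34 (2.23%) and 41 (2.69%) for the body, beside 3.37% and 5.03%.

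The located members called lower in body signal were LINC00632, CTTNBP2 and GFRA1, all placed on GRCh38. LINC00632, a long non-coding RNA gene and the host of a circular RNA, lies at chrX:140709562-140793215. Its start had 0.0787, 0.149 and 0.156 in CFAP20-KO replicates 1 to 3 and 0.28 in the rescue, against 1.52, 2.16 and 2.85 in WT replicates 1 to 3. The rescue lay between the other groups, which do not overlap. The log2 change was -3.63 ± 0.46 (SE, n = 3 each; limma adjusted p = 0.0264), and its body fell by 4.38 ± 0.55 on the log2 scale (limma adjusted p = 0.00701). The start call was lost on leaving out any 1 library (adjusted p 0.0630 to 0.183), while the body call held in each of those fits.

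CTTNBP2, which encodes a protein that binds cortactin and is best known from neurons, lies at chr7:117710651-117874139 and spans 163 kb from its placed start. Its body had 0.0418, 0.064 and 0.0812 in CFAP20-KO and 0.352 in the rescue, against 0.859, 1.68 and 0.526 in WT. The groups are far apart, and the rescue lies between them. The body change was -3.84 ± 0.52 (limma adjusted p = 0.0111; 0.0632 without WT replicate 1). Its start had 0.184, 0.0533 and 0.144 in CFAP20-KO against 3.3, 1.86 and 1.07 in WT (change -3.53 ± 0.57, limma adjusted p = 0.0649). GFRA1, a receptor subunit for the neurotrophic factor GDNF, lies at chr10:116056925-116276803. Its body had 0.191, 0.299 and 0.221 in CFAP20-KO and 0.686 in the rescue, against 0.886, 1.43 and 1.11 in WT. The body change was -2.25 ± 0.40 (limma adjusted p = 0.0382), and the call was lost on leaving out any 1 library (0.0734 to 0.194). At its start, CFAP20-KO replicate 1 (1.49) and WT replicate 2 (1.45) overlapped.

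In LINC00632 and CTTNBP2 the far-to-body ratio overlapped between the groups. It was 1.5, 1.19 and 1.29 in CFAP20-KO and 1, 0.794 and 1.23 in WT for LINC00632, and 1.35, 1.08 and 0.936 in CFAP20-KO and 0.721, 0.956 and 1.19 in WT for CTTNBP2. Neither ratio passed the test (limma adjusted p = 0.757 and 0.835). In GFRA1 the ratio was 0.616, 0.465 and 0.689 in CFAP20-KO, above the 0.221, 0.435 and 0.326 of WT, with a change of 0.88 ± 0.33 that missed the threshold (limma adjusted p = 0.356). Another 2 members, which were not located, were also lower in body signal, with changes of -2.40 ± 0.44 and -2.76 ± 0.50 (limma adjusted p = 0.0448 for each). Both calls were lost with no filter (0.0844 and 0.0933) and with CFAP20-KO replicates 2 and 3 averaged (0.150 and 0.167). On leaving out any 1 library the first was lost (0.0734 to 0.161), and the second held only without CFAP20-KO replicate 1 (0.0478, otherwise 0.0561 to 0.198). In the first of them the rescue had 0.0166, below every other library, and in the other it had 0.334, between the groups.

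**Figure D5:**
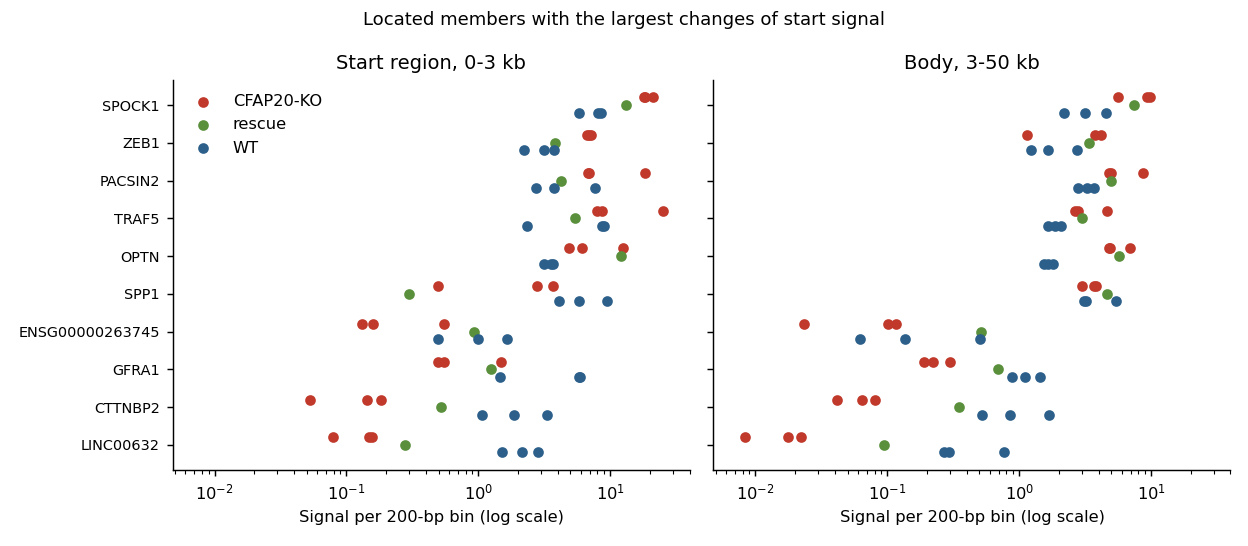
Signal per 200-bp bin on a log axis, over the start region (left panel) and the body (right panel), for the 10 located members with the largest changes of start signal in either direction. Each point is 1 library (CFAP20-KO red, rescue green, WT blue); LINC00632 and CTTNBP2 are apart in both panels, and SPOCK1 and OPTN are higher in every CFAP20-KO than in every WT library in both.

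The largest increases of start signal among located members did not pass the planned test. SPOCK1, which encodes an extracellular proteoglycan and spans 524 kb, had 21.2, 18.4 and 18.1 at its start in CFAP20-KO and 13.1 in the rescue, against 8.58, 5.85 and 8.09 in WT. Its change was 1.37 ± 0.29 (limma adjusted p = 0.148, and 0.00368 with the run as a covariate). ZEB1, a transcription factor of epithelial to mesenchymal transition, had 6.69, 7.14 and 6.90 in CFAP20-KO against 3.16, 2.21 and 3.72 in WT. Its change was 1.21 ± 0.32 (limma adjusted p = 0.252, and 0.0132 with the run as a covariate). At the start, all 3 knockout libraries were above all WT libraries in both genes. PACSIN2, which bends membranes, had 18.3, 6.93 and 6.73 in CFAP20-KO against 7.70, 2.76 and 3.72 in WT. TRAF5, an adaptor of tumour necrosis factor receptors, had 25.1, 8.64 and 7.99 against 8.74, 2.33 and 8.95. At the start of both genes the groups overlap, with CFAP20-KO replicate 1 far above the rest. In PACSIN2 each knockout library was above the WT library of its run, and in TRAF5 only CFAP20-KO replicate 1 was. With the run as a covariate the limma adjusted p for the start was 0.0101 for PACSIN2 and 0.261 for TRAF5. In the body the groups were apart in both genes. PACSIN2 had 8.74, 4.84 and 4.95 there in CFAP20-KO against 3.69, 3.25 and 2.79 in WT. TRAF5 had 4.64, 2.66 and 2.80 against 1.66, 1.87 and 2.08. Neither body change passed the planned test (limma adjusted p = 0.357 and 0.414).

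OPTN, an autophagy receptor, had 12.5, 4.91 and 6.08 at its start in CFAP20-KO against 3.7, 3.55 and 3.12 in WT. Its body had 4.81, 6.91 and 4.92 in CFAP20-KO and 5.67 in the rescue, against 1.53, 1.80 and 1.65 in WT. The body change of 1.72 ± 0.32 missed the threshold narrowly (limma adjusted p = 0.0519, and 0.00836 with the run as a covariate). Its far region also had more signal, with 3.72, 4.34 and 3.96 in CFAP20-KO against 1.71, 1.56 and 2.24 in WT, while its gene spans 38.1 kb and another coding gene starts within the window.

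Among the largest decreases of start signal, SPP1 (osteopontin, a secreted matrix protein) had 0.498, 3.71 and 2.77 in CFAP20-KO and 0.30 in the rescue, against 5.78, 9.42 and 4.11 in WT. Its change was -1.77 ± 0.73 (limma adjusted p = 0.545), although the groups do not overlap. Its body overlapped, with 2.99, 3.85 and 3.71 in CFAP20-KO and 3.09, 5.47 and 3.19 in WT. A long non-coding gene without a symbol, ENSG00000263745, had 0.131, 0.160 and 0.552 in CFAP20-KO against 1, 1.66 and 0.498 in WT, which overlap.

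Among the 10 located members with the highest start in CFAP20-KO, the mean start over the 3 knockout libraries ran between 16.2 for ADAMTS14 and 24 for MED18. ADAMTS14 (a procollagen protease), PXDN (peroxidasin, which cross-links collagen IV), EFEMP1 (fibulin-3) and SPOCK1 act outside the cell. PXDN had 30.2, 16.5 and 16.1 in CFAP20-KO against 18.6, 6.75 and 15.7 in WT, and its far signal exceeded its body signal in every library, with ratios of 1.24, 1.38 and 1.44 in CFAP20-KO and 1.47, 1.16 and 1.71 in WT. EFEMP1 had 20.3, 15.1 and 16.8 in CFAP20-KO against 8.10, 5.94 and 15.3 in WT, and ADAMTS14 had 27.7, 10.7 and 10.1 against 16.3, 2.02 and 10.3. In all 3 genes the groups overlap.

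The others of the 10 were BRIP1 (a DNA helicase), TIAL1 (an RNA-binding protein), EIF3K (a subunit of a translation initiation factor), VAPB (an endoplasmic reticulum tether), FOXO3 (a transcription factor) and MED18. BRIP1, which spans 184 kb, had 9.28, 19.1 and 21.8 at its start in CFAP20-KO against 12.8, 12.1 and 23.9 in WT. FOXO3 had 30.7, 8.18 and 10.3 in CFAP20-KO against 26.6, 10.4 and 13.6 in WT. TIAL1 was steadier, with 12, 18.8 and 18.4 against 16.9, 15.8 and 17.4. EIF3K, which spans 17.9 kb, had more far than body signal in every library, with ratios of 1.14, 1.46 and 1.46 in CFAP20-KO and 2.34, 1.09 and 2.96 in WT. VAPB had 21.0, 16.5 and 16.2 in CFAP20-KO against 24.8, 13.2 and 20.3 in WT. None of these 6 genes had groups apart at the start.

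Mediator, the complex that links transcription factors with RNA polymerase II, gave 2 located members of 33 listed genes, 6 of which lay in origin windows and could be matched. MED27, which spans 227 kb, had 8.31, 9.05 and 9.22 at its start in CFAP20-KO against 14.6, 10.3 and 10.3 in WT, and 4.19, 3.7 and 3.74 in its body against 2.31, 4.13 and 2.22. Its start was lower in every knockout library than in every WT library, and its body overlapped. MED18, which spans 6.93 kb, had 40.7, 15.6 and 15.8 at its start in CFAP20-KO against 29.7, 4.63 and 21.4 in WT. Its far region had 2.55, 2.44 and 2.30 against 1.18, 1.94 and 0.949, apart between the groups. Neither passed the test for start or body (limma adjusted p 0.679 to 0.993). No located member belonged to the lists of elongation factors, matrix and adhesion or growth and cell cycle control, of which 3 of 29, 6 of 28 and 4 of 13 genes lay in origin windows.

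The far-to-body ratio passed the test in 3 windows that were not located. In uc002qox.4, far signal was 0.0846, 0.0523 and 0.0473 in CFAP20-KO against 1.23, 0.923 and 1.29 in WT, and the body had 1.30, 1.04 and 1.11 against 1.92, 2.14 and 2.36, so that both were lower in every knockout library. Its ratio changed by -3.29 ± 0.31 on the log2 scale (limma adjusted p = 0.0219). In uc032igq.2 the ratio was 0.257, 0.252 and 0.233 in CFAP20-KO against 1.10, 1.18 and 1.03 in WT (change -2.15 ± 0.22, limma adjusted p = 0.0219). In uc003pow.4 it was 2.79, 2.39 and 2.36 in CFAP20-KO against 0.696, 0.701 and 0.721 in WT (change 1.81 ± 0.24, limma adjusted p = 0.0485), with far signal apart and body signal overlapping between the groups. With the replicate block the adjusted p was 0.0558, 0.0838 and 0.144 in these windows, and with the run as a covariate 0.0571 in each. Leaving out any 1 library ended these calls as well (0.0581 to 0.199), except that of uc002qox.4 without WT replicate 2 (0.0477). The rescue had ratios of 0.0626, 0.256 and 5.44 in these 3 windows, in each case on the side of the knockout libraries. Its 1 library allows no test.

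The late-to-early ratio passed the test in 2 windows. In the one with lower late signal, the mean over 25 to 50 kb was 0.0881, 0.0333 and 0.0360 in CFAP20-KO and 0.0384 in the rescue, against 0.542, 0.564 and 0.524 in WT. Over 3 to 25 kb it had 2.38, 2.02 and 1.69 in CFAP20-KO against 1.01, 1.08 and 1.09 in WT. In the window with higher late signal, the late part had 8.09, 1.65 and 1.31 in CFAP20-KO and 2.47 in the rescue, against 0.0240, 0.00587 and 0.0239 in WT. Their limma adjusted p-values were 0.0210 and 0.0146. Both calls were lost with the replicate block (0.0871 and 0.0827), the run as a covariate (0.115 and 0.118) and no filter (0.0517 each), and on leaving out any 1 library (0.0627 to 0.153) other than CFAP20-KO replicate 1 (0.0257 each). In both windows the rescue was on the side of the knockout libraries.

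At the extremes of the ratio over knockout libraries, the highest was a window with almost no body signal (0 to 0.00837 in CFAP20-KO and 0.00406 to 0.00638 in WT) and a far signal of 2.90 to 6.89 in CFAP20-KO and 1.90 to 3.11 in WT. The lowest had a ratio of 0.0161, 0.0144 and 0.0135 in CFAP20-KO and 0.023 in the rescue, against 0.168, 0.154 and 0.719 in WT. Its log2 change was -4.02 (limma adjusted p = 0.0663). Of the WT libraries, replicate 3 was above the ratio of 0.25 that the choice required and the others were below it.

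The spread among members was wide. The middle 50% had a start between 3 and 9.81 in the CFAP20-KO average and between 2.90 and 9.94 in the WT average. Their ratio lay between 0.468 and 1.28 in CFAP20-KO and between 0.497 and 1.38 in WT, and the highest 10% exceeded 3.38 in CFAP20-KO and 3.69 in WT. On the CFAP20-KO average, 1365 members (89.4%) also met the rule. At the thresholds, the member with the lowest WT start had 1.003 and the nearest window below had 0.999. The highest start inside was 19.9, and the nearest window above had 20.02. The lowest ratio inside was 0.2509, and the highest outside 0.2496.

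Splicing offered a readout that the choice did not use. The authors' splice index, a fraction per intron whose depth is unknown, was present for 36 introns of 21 located genes. Its median over these introns was 0.549, 0.647 and 0.660 in CFAP20-KO replicates 1 to 3 and 0.751 in the rescue, against 0.698, 0.716 and 0.754 in WT replicates 1 to 3. Every knockout library was below every WT library. Over all 6537 introns the medians were 0.519, 0.706 and 0.686 in CFAP20-KO against 0.543, 0.693 and 0.650 in WT, which overlap. The rescue had 0.729 there, above every CFAP20-KO and every WT library. The median change per intron was -0.0469 for the located genes and 0 for all introns. With so few genes, placed only near origins, this is given as a description.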

How the data were processed

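The deposited tables hold signal (coverage) per 200-bp bin, which the authors scaled per library by a rule not given in the sources used here, and a splice index as a fraction per intron. The build is hg38, per the labels. STAR 2.7.7a, R 4.0.5, HOMER 4.8.2 and FastQC 0.11.9 are named in the submitters' processing notes, as are SAMtools 1.11 and, for trimming, Trim Galore 0.6.5, with no parameters. Steps are not reads, so counting intervals were not computed and limma 3.58.1 (R 4.3.3, trend and robust, statmod 1.5.0) was used on log2(signal + pseudocount), with no count model. As pseudocount served percentile 10 of all values above 0 (0.0498 for the start, 0.00383 for the body, 0.00297 for the far region), and windows with a mean of at least that were tested. Such changes understate those of low windows. The fit, tested on simulated data, used 3 CFAP20-KO and 3 WT libraries without covariates; alternatives included the replicate block, the run, another choice of members and leaving out each library.

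Members were located by correlating log2 signal (pseudocount 0.3) minus an 11-bin running mean, within 20 kb of the start, with 22439 GENCODE 44 transcript starts in 2032 origin windows. A match of at least 0.8 with no other at 0.75 was required. RefSeq promoters came from GRCh38.p14. The members, gene lists and tests were chosen with earlier results of these data known. Named genes were the 10 located members with the highest knockout start, the 5 largest increases and decreases of start signal, list members, called windows (up to 2 in each direction of each test, and for the body the further windows called) and windows at the extremes and thresholds. Same-numbered samples correlated in their deviations at 0.593, 0.329 and 0.0570 for the start, 0.603, 0.374 and 0.0145 for the body, 0.339, 0.102 and 0.111 for the far-to-body ratio and 0.273, 0.0402 and 0.157 for the late-to-early ratio, so that the criterion of 0.1 was met for the far-to-body ratio only. For that ratio, crossed pairs among replicates 2 and 3 also correlated. CFAP20-KO replicate 2 with WT replicate 3 gave 0.129, and CFAP20-KO replicate 3 with WT replicate 2 gave 0.122. Crossed pairs with a replicate 1 were negative. Meeting the criterion therefore does not show that same-numbered libraries are pairs. Other steps ran in Python 3.11.15.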

Additional observations from a re-analysis of the deposited data

How the results depend on the processing

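The calls of single members depended on how the libraries were modelled. For start signal (0 higher and 1 lower in the planned fit), the lower count was 2 with no filter, 5 with each library centred, 5 without trend and robust, 0 with CFAP20-KO replicates 2 and 3 averaged and 0 for windows chosen on WT replicate 2. The run covariate gave 37 higher and 195 lower, and 99 and 133 with centring. In every fit with that covariate, WT replicate 2 is alone in its run and does not enter the contrast of the groups. For body signal, 0 members were higher and 5 lower in the planned fit (32 and 20 of all 7071 windows). The lower count was 2 with no filter (7 of all 9123) and 2 with the averaged replicates (7 of all 7071). For windows chosen on WT replicate 2 it was 2 (9 of all 7071). The run covariate gave 240 higher and 81 lower, and 301 and 74 with centring. For the far-to-body ratio (1 higher and 2 lower), the higher count was 0 with the pseudocount at 0.5 of its size, no filter, centring, averaged replicates, no trend and robust, the run covariate with or without centring, and the choice on WT replicate 2. The lower count was 0 with averaged replicates and with the run covariate, centred or not, and 1 for the choice on WT replicate 2. Over all windows tested, the fits named for the higher count called 1 to 11 higher. Those named for the lower count called 1 to 3 lower. For the late-to-early ratio (1 higher and 1 lower), both counts were 0 with no filter, averaged replicates, the run covariate, centred or not, and the choice on WT replicate 2. The lower count was also 0 with centring and with members at a ratio of at least 0.5. Where both counts were 0, 0 of all windows were called in either direction. Of all 5393 windows, 0 were lower with centring and 3 in the planned fit. The fits for windows chosen on WT replicate 2 also leave that library out, and leaving it out with the members kept gave the same counts of calls, so the choice of windows and the omission cannot be told apart there. The cause of the other shifts was not tested.

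With the replicate block, start signal gave 0 higher and 4 lower, body signal 21 and 13, and both ratios 0 and 0. With the block and centring, start signal gave 37 and 61 (of all 4768 windows tested, 130 and 198), body signal 34 and 41 (of all 7071, 238 and 356), and both ratios 0 and 0. The block with centring, like the run covariate with centring, was chosen after seeing the data.

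Leaving out 1 library at a time gave 0 to 0 start calls in either direction, and 0 to 0 higher and 1 to 3 lower body calls. It gave 0 to 0 higher and 0 to 1 lower calls of the far-to-body ratio, and 0 to 1 calls in each direction of the late-to-early ratio. Over all windows, these fits called 1 to 6 higher and 1 to 3 lower for the start, and 18 to 38 and 2 to 26 for the body. For the far-to-body ratio they called 1 to 3 in each direction, and for the late-to-early ratio 0 to 1. The median change over members then ran between -0.20 and 0.13 for the start, 0.18 and 0.33 for the body, -0.18 and -0.09 for the far-to-body ratio, and -0.07 and 0.07 for the late-to-early ratio. Depth limits low windows most: 1 step was worth 0.393 in CFAP20-KO replicate 1 and 0.0733 in WT replicate 2.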
